A study of Mus musculus with 14 samples.

Results

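The genes described here are the 10 members of a set that makes triglyceride from glycerol phosphate and loads it onto very low density lipoprotein (VLDL): Gpam, Agpat2, Lpin1, Lpin2, Lpin3, Dgat1, Dgat2, Mogat1, Mttp and Tm6sf2. They were taken by gene symbol from the deposited count tables of liver and kidney. All 10 were found in the liver table of 19660 genes and in the kidney table of 20203 genes. In liver all 10 had enough counts to be tested between the diets. In kidney 9 of them did, all but Tm6sf2.

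Triglyceride is built on glycerol-3-phosphate by successive acylations and one dephosphorylation. Gpam adds the first fatty acid on the outer mitochondrial membrane, Agpat2 adds the next to give phosphatidic acid, and the lipins remove its phosphate to give diacylglycerol. Dgat1 and Dgat2 add the last fatty acid, while Mogat1 reaches diacylglycerol from monoacylglycerol instead. In hepatocytes Mttp transfers the product to apolipoprotein B as VLDL forms, and Tm6sf2 is a membrane protein needed to fill those particles with lipid.

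RNA came from liver and kidney of adult male mice of 12 weeks that carried a human angiotensinogen transgene of the haplotype labelled -6A, whether they received a normal diet or high salt. The question was how salt acts on gene expression in these organs. There were 4 liver and 3 kidney libraries on each diet, 14 in all. All groups carried the transgene, so no comparison here is with mice lacking it. The labels do not say whether both tissues came from the same mice, or that the libraries of a group came from separate mice, so p-values measure the spread between these libraries. Libraries are called ND1 to ND4 on the normal diet. On high salt they are HS5 to HS8 in liver, numbers that match no sample title, and HS1 to HS3 in kidney.

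Liver libraries held 37267778 to 51487382 counts and kidney libraries 16046094 to 22004927. Levels are in CPM, counts per gene relative to the library size after TMM scaling rather than to the plain library total. Hepatocyte markers summed to at least 50434 CPM in every liver library and to at most 103 CPM in kidney, and kidney tubule markers to at least 3349 CPM in kidney and at most 8.81 CPM in liver, as the tissue labels state. HS5 and HS6 of liver were close to copies of each other, with a chi-square of 1.59 per gene where the 11 other liver pairs of one diet had 9.85 to 62.73 and sampling noise alone gives about 1, so values with this pair summed are also given. ND1 and ND2 of liver stood apart by a mitochondrial share of 2.30% and 2.06% of counts, against 11.31% to 29.56% in the other 6. ND4 of liver held 18.2 CPM of the neutrophil gene S100a8, where the other liver libraries held at most 0.629 CPM, and had the lowest hepatocyte marker sum. In kidney ND1 stood apart, with a chi-square of 51.56 and 50.06 per gene against ND2 and ND3, which differed from each other by 4.19.

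Sequences just upstream of the start are shown for 4 members on which the results turn: Gpam, which had the largest diet difference in liver, Lpin1 and Lpin2, which were low in the same liver libraries, and Mogat1, which differed most between the tissues. They are RefSeq sequences of GRCm38.p6, the 250 bases before the start site, 5′ to 3′ on the gene's strand, and 7 of the 10 members had such an entry. RefSeq lists 1 further start for Gpam and 2 for Lpin2, and the first listed is shown. Capitals mark exact matches, on either strand, to any of 7 motifs: the E-box CACGTG, the sterol response element TCACNCCAC, the DR1 repeat of nuclear receptors, the D-box TTANGTAA, the CCAAT box by that name, the TATA box TATAAA and the GC box GGGCGG. Each motif was searched separately, so matches of different motifs may overlap.
Gpam, chr19:55127239-55127488, minus strand: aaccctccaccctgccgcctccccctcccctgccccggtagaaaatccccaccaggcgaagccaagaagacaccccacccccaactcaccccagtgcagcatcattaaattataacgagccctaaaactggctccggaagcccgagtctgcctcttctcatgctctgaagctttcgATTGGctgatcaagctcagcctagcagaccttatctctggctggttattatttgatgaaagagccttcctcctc
Lpin1, chr12:16610967-16611216, minus strand: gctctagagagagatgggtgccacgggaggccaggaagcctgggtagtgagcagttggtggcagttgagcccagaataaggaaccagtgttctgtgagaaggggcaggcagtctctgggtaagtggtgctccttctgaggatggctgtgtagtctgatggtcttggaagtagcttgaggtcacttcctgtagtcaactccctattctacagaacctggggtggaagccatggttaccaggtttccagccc
Lpin2, chr17:71183282-71183531, plus strand: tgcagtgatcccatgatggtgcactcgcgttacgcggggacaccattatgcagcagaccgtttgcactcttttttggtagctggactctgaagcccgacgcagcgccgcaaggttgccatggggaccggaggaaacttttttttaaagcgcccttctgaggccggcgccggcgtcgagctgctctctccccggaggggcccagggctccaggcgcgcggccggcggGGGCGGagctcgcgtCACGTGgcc
Mogat1, chr1:78510810-78511059, plus strand: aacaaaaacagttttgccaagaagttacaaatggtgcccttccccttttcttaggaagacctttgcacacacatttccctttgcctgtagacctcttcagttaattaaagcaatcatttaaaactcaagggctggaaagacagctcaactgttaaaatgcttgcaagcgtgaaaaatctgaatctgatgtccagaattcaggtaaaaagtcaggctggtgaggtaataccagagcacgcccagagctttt
The Gpam window shown held 1 match, CCAAT on the reverse strand 74 bases before the start. CCAAT occurs in 33.8% of all 32851 mouse windows of this length. The Lpin2 window shown held a GC box 24 bases and an E-box 9 bases before the start, motifs found in 32.7% and 6.0% of all windows. Lpin1 and Mogat1 held none of the 7. The Lpin1 window lies before a start at base 16610966, which is also the GENCODE start. The Lpin1 that was counted extends further, to base 16646966, so the window is not upstream of that outer end. The counted Lpin2 begins at base 71182560, so its window lies inside the counted gene. The counted Mogat1 begins at base 78510991, inside its window. That window also lies within BC035947, a gene on the opposite strand. The windows also differed in composition, with 26 CpG sites in Lpin2, 7 in Gpam, 2 in Mogat1 and 1 in Lpin1, where the median window has 6. The window of the other Gpam start held 21 CpG sites and a GC box 16 bases before the start, with no CCAAT. Those of the other Lpin2 starts held 50 CpG sites with 1 GC box, and 3 CpG sites with 3 CCAAT matches.

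The first comparison asked which of these genes differed between high salt and normal diet in liver. The first enzyme of the pathway, Gpam, stood 2.54-fold higher on high salt (95% interval 1.62 to 3.98, n = 4 each), and did not pass the threshold of an adjusted p-value under 0.05 over all genes. Tm6sf2 and Mttp at the VLDL end of the pathway were 1.43-fold and 1.32-fold higher, and neither passed. Of the enzymes between them, Agpat2, the lipins, Dgat1 and Dgat2 had intervals that included no change. The Lpin1 interval, 0.401-fold to 4.07-fold, was wide enough to include the Gpam estimate as well. Mogat1, with few counts in liver, was 2.43-fold higher (interval 1.14 to 5.19) and did not pass. Of the 10 members 0 passed in edgeR, where 152 of 15130 genes (1.00%) passed, 0.595% higher and 0.410% lower on high salt. Before adjustment 4 members had a p-value under 0.05 (Gpam, Mogat1, Mttp and Tm6sf2, all with higher means on high salt), as did 21.2% of all genes. The median log2 fold change of the members was 0.30, and -0.023 over all genes tested. DESeq2 called 1 member, Gpam. Hepatocyte markers summed to 50434 to 77059 CPM on the normal diet and to 88621 to 106501 CPM with high salt. Most of this sum was Alb, with means of 43963 and 74599 CPM. Ttr also had a higher mean on high salt, whereas Serpina1c (9798 and 6322 CPM), Apoa1 and Cps1 had lower ones. The median log2 fold change of these markers was -0.15. The part of hepatocyte content in the values of the members was not tested.

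Gpam (chromosome 19, 55067268 to 55127238, minus strand) encodes the mitochondrial glycerol-3-phosphate acyltransferase that commits fatty acids to glycerolipid. Its liver levels were 95.2, 121, 110 and 86.1 CPM in ND1 to ND4 and 332, 339, 128 and 250 CPM in HS5 to HS8. Every high salt library lay above every normal diet library, with HS7 only just above ND2. Of all genes tested 6.44% lay wholly above in the same way. Means of 103 ± 15.6 and 262 ± 98.5 CPM (SD, n = 4 per diet) gave a change of 1.35 on the log2 scale, standard error 0.290 (edgeR adjusted p = 0.0649). Without HS7 the change was 1.56 and passed (edgeR adjusted p = 0.0194). With HS5 and HS6 summed it was 1.20 (edgeR adjusted p = 0.220), and with all 14 libraries in 1 fit it was 1.35 and passed (edgeR adjusted p = 0.0226). DESeq2 gave 1.34 (adjusted p = 0.000853). Over all 18 alternatives the change ran from 1.20 to 1.56 and the adjusted p from 0.000853 to 0.225, under the threshold in 3.

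Agpat2 (chromosome 2, 26593057 to 26604417, minus strand) encodes the acyltransferase of the next step, whose loss causes a congenital lack of body fat. It stood at 154, 181, 88.4 and 93.7 CPM in ND1 to ND4 and at 113, 117, 72.4 and 121 CPM in HS5 to HS8. The normal diet libraries split into a high and a low pair. Of the high salt libraries 3 fell between them and HS7 below both. The log2 fold change was -0.29 (interval -0.88 to 0.31, edgeR adjusted p = 0.552). The high pair, ND1 and ND2, is the pair with a mitochondrial share near 2%. Without both the change was 0.22, so its sign rested on them, and their part in it was not otherwise tested. Leaving out 1 library gave -0.44 (without ND3) to -0.08 (without ND2), and summing HS5 and HS6 gave -0.33. Agpat2 shares 64 of its 2130 exon bases with Egfl7, which held 11.5 to 23.6 CPM in liver.

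**Figure D1:**
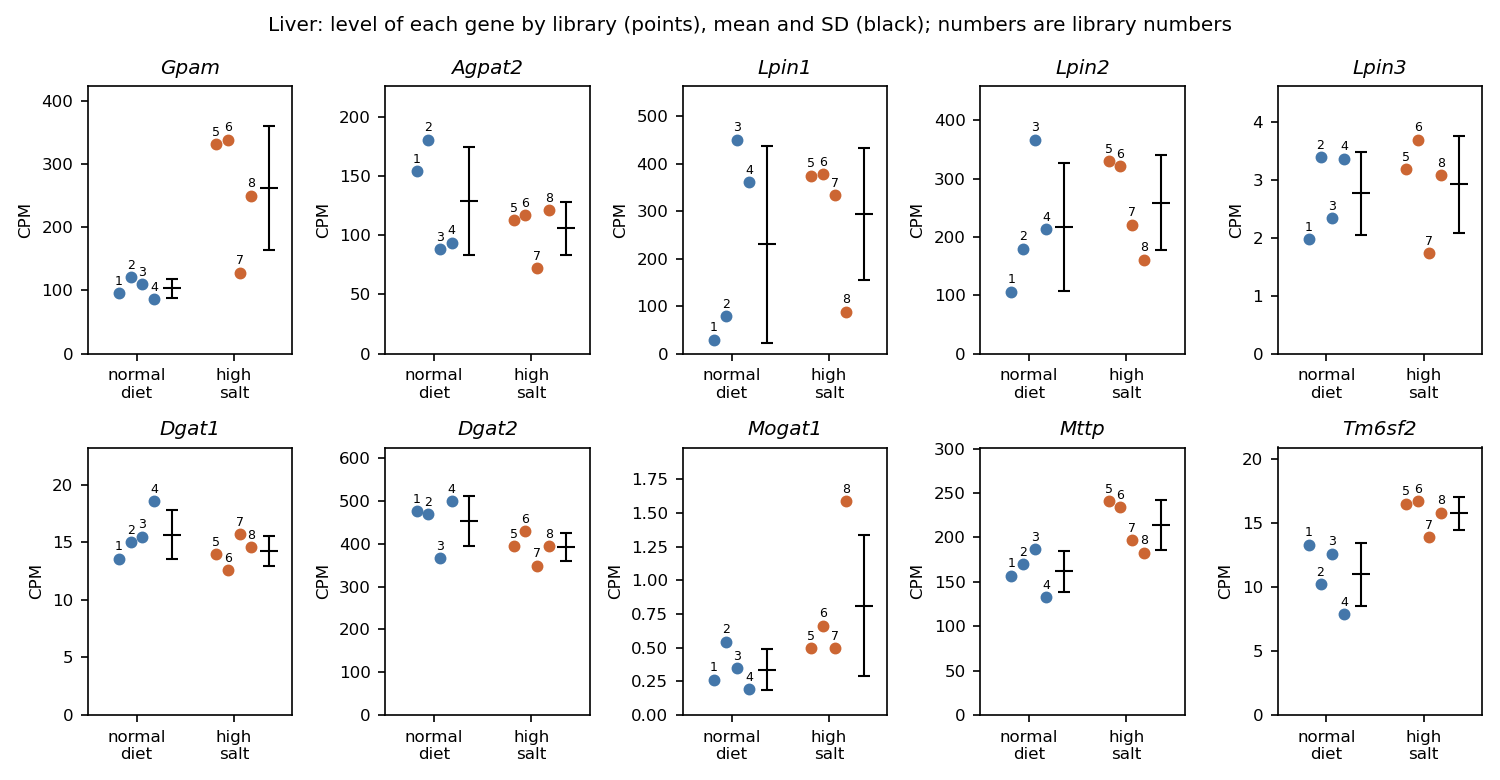
Level of each of the 10 genes in the 8 liver libraries, in CPM (vertical axes start at 0). Points are libraries with their number, black marks are the group mean and SD. Gpam and Tm6sf2 have every high salt point above every normal diet point, and Lpin1 spans 29.3 to 451 CPM on the normal diet alone.

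The lipins spread far more between libraries than between diets. Lpin1 (chromosome 12, 16535669 to 16646966 in the files, minus strand) encodes lipin-1, which also acts in the nucleus as a coactivator of fatty acid oxidation genes. It stood at 29.3, 78.7, 451 and 361 CPM in ND1 to ND4 and at 375, 378, 333 and 87.9 CPM in HS5 to HS8. ND1, ND2 and HS8 were low and the other 5 libraries high, so that the groups overlapped. Within the normal diet the highest library was 15.4-fold over the lowest. The log2 fold change between the diets was 0.35 with a wide interval of -1.32 to 2.02 (edgeR adjusted p = 0.811). Its sign turned without ND1 (-0.02) and without ND1 and ND2 together (-0.47).

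Lpin2 (chromosome 17, 71182560 to 71249817, plus strand) encodes lipin-2, another lipin abundant in liver. It stood at 106, 180, 367 and 213 CPM in ND1 to ND4 and at 330, 321, 221 and 161 CPM in HS5 to HS8. The lowest 3 libraries were again ND1, HS8 and ND2, as for Lpin1, over a range of 3.45-fold on the normal diet. The diet change was 0.25 on the log2 scale (interval -0.56 to 1.07, edgeR adjusted p = 0.710), and -0.17 without ND1 and ND2. Leaving out 1 library gave 0.02 (without ND1) to 0.62 (without ND3). With HS5 and HS6 summed it was 0.12, and that of Lpin1 was 0.21. Of these 3 libraries ND1 and ND2 had the lowest mitochondrial shares, and HS8 with 11.31% had the next lowest. HS5 and HS6 were close to HS8 in this share, at 12.3% and 12.98%, and were among the highest libraries for both lipins. Whether what sets ND1, ND2 and HS8 apart acts on the lipins was not tested.

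Lpin3 (chromosome 2, 160880670 to 160906002, plus strand), a lipin of the gut and other tissues, was scarce in liver. Its levels lay between 1.97 and 3.38 CPM in the normal diet libraries and between 1.73 and 3.69 CPM in the others. It did not follow the other lipins, since its lowest libraries were HS7 and ND1. The diet change was 0.08 on the log2 scale (interval -0.56 to 0.72, edgeR adjusted p = 0.899). Per exon base, Lpin1 stood at 0.350 to 2.14 times Lpin2 across the 8 liver libraries, under 1 in ND1, ND2 and HS8 and over 1 in the other 5.

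**Figure D2:**
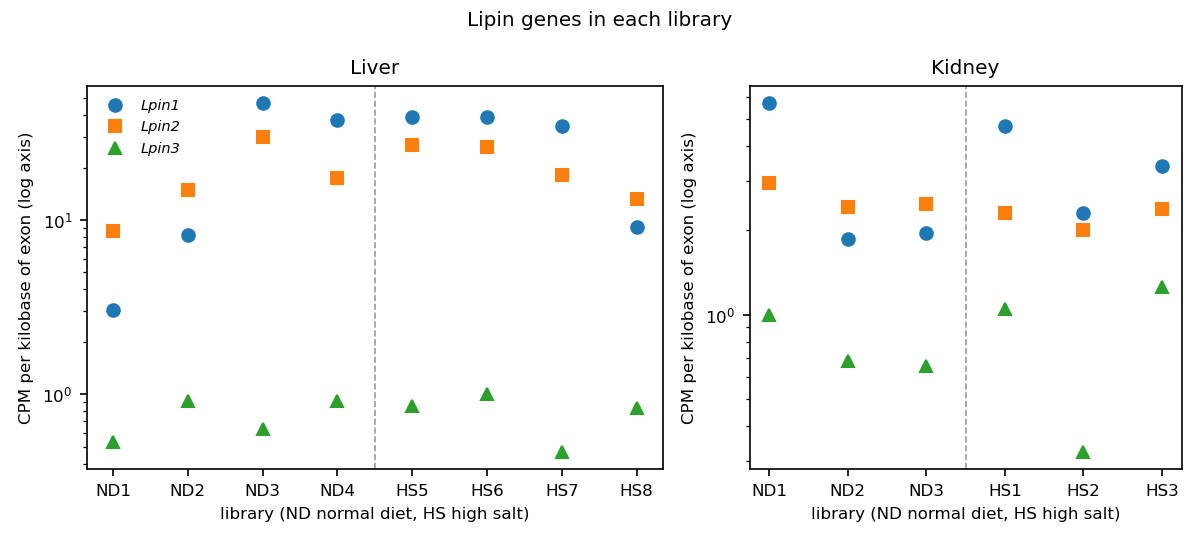
Level per kilobase of exon of the 3 lipin genes in each library of liver (left) and kidney (right), on log axes, with normal diet libraries left of the dashed line. Lpin1 and Lpin2 are low together in liver ND1, ND2 and HS8, while Lpin3 is the scarcest lipin in every library.

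The last acylation is shared by 2 enzymes of unrelated sequence. Dgat2 (chromosome 7, 99153658 to 99182719, minus strand) handles mainly newly made fatty acids in liver. It was the member with the highest liver level per exon length, at 477, 469, 367 and 500 CPM in ND1 to ND4 and 394, 429, 349 and 394 CPM in HS5 to HS8. Its groups overlapped through ND3 alone. The log2 fold change was -0.21 (interval -0.59 to 0.16, edgeR adjusted p = 0.483), so a rise of more than 1.12-fold lies outside the interval, unlike for Gpam.

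Dgat1 (chromosome 15, 76502015 to 76511953, minus strand), which also re-esterifies fatty acids that enter from outside, lay between 13.6 and 18.6 CPM in ND1 to ND4 and between 12.6 and 15.7 CPM in HS5 to HS8. Its change was -0.14 on the log2 scale (interval -0.47 to 0.19, edgeR adjusted p = 0.608). It was among the steadiest members, with an SD of 13.5% and 9.01% of the mean on the 2 diets. Per exon base Dgat2 was 22.1 to 34.8 times as abundant as Dgat1 in the 8 liver libraries.

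Mogat1 (chromosome 1, 78510991 to 78538173, plus strand), the enzyme of the monoacylglycerol route, was near the limit of detection in liver. It gave 8 to 20 counts in ND1 to ND4 and 24 to 90 in HS5 to HS8. These gave 0.262, 0.545, 0.346 and 0.192 CPM in ND1 to ND4 and 0.497, 0.663, 0.499 and 1.59 CPM in HS5 to HS8. The diets overlapped through ND2, and HS8 stood alone at the top. The log2 fold change was 1.28 (interval 0.18 to 2.37, edgeR adjusted p = 0.188) and fell to 0.72 without HS8. HS8 also held 3.99 CPM of Cfd, the only one of 6 adipocyte markers among the genes of the liver table used here, where the other liver libraries held at most 0.312 CPM. Mogat1 is abundant in whole kidney, as given below. Markers of kidney tubule summed to 0.547 to 1.76 CPM in ND1 to ND4 and to 1.30, 1.66, 8.81 and 4.65 CPM in HS5 to HS8. Among them Lrp2 differed by 1.41 on the log2 scale (edgeR adjusted p = 0.0852). The part of either marker set in the Mogat1 values was not tested. With HS5 and HS6 summed the Mogat1 change was 1.40 (edgeR adjusted p = 0.336).

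At the assembly end, Mttp (chromosome 3, 138089854 to 138144968, minus strand) encodes the transfer protein without which apolipoprotein B is degraded. It stood at 157, 170, 187 and 133 CPM in ND1 to ND4 and at 241, 234, 197 and 183 CPM in HS5 to HS8. The groups overlapped only in that HS8 lay just under ND3. The change was 0.40 on the log2 scale, standard error 0.169 (n = 4 per diet, edgeR adjusted p = 0.213). The higher pair HS5 and HS6 carried part of it, and with the pair summed it was 0.35 (edgeR adjusted p = 0.452). Mttp shares 457 of its 6206 exon bases with Trmt10a, which held 2.36 to 4.31 CPM in liver and 3.80 to 5.80 CPM in kidney.

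Tm6sf2 (chromosome 8, 70072924 to 70080066, plus strand) was the other member with no overlap between the diets. It stood at 13.3, 10.2, 12.6 and 7.88 CPM in ND1 to ND4 and at 16.5, 16.7, 13.9 and 15.8 CPM in HS5 to HS8. All 4 high salt values exceeded the highest normal diet value, by as little as the step from ND1 to HS7. The change was 0.52 on the log2 scale, standard error 0.184 (n = 4 per diet, edgeR adjusted p = 0.167). Without ND4 the change was 0.38 (edgeR adjusted p = 0.149), and with HS5 and HS6 summed it was 0.49 (edgeR adjusted p = 0.373). ND4, the library with high S100a8, was the lowest of all liver libraries for Gpam, Mttp and Tm6sf2. Without it the change was 1.26 for Gpam and 0.31 for Mttp. For Gpam, Mogat1, Mttp and Tm6sf2 the liver change was positive in every alternative run. The alternatives reuse the same libraries, so the constant sign is not separate evidence of a change.

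The second comparison was the same contrast in kidney, where VLDL is not a main product but triglyceride is stored in tubule cells. Of the 9 members tested 0 passed in edgeR, and 0 of 15847 genes (0.00%) passed. Before adjustment 1 member, Mttp, had a p-value under 0.05, as did 2.01% of all genes. Without ND1 that number over all genes went from 318 to 2627, and 0 genes passed after adjustment. DESeq2 called 0 of the 9 members and 11 genes in all. The median log2 fold change was 0.11 over the 9 members and -0.025 over all genes. The diets did not overlap in 3 members, where 6.92% of all genes did not, with Mttp and Mogat1 wholly above on high salt, as were 3.85% of all genes, and Lpin2 wholly below, as were 3.07%. The edgeR adjusted p-value was 0.9996 for each of the 9 members.

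Mttp in kidney stood at 16.2, 22.7 and 21.0 CPM in ND1 to ND3 and at 28.4, 25.5 and 32.7 CPM in HS1 to HS3. The lowest high salt library exceeded the highest normal diet library by a few CPM. The change was 0.53 on the log2 scale (interval 0.06 to 1.00, n = 3 per diet, edgeR adjusted p = 0.9996). It thus had a positive estimate in both tissues, 0.40 in liver and 0.53 in kidney, with neither past the threshold. ND1, which stood apart, was the lowest library, and without it the kidney change was 0.40 (edgeR adjusted p = 0.304). Apob, the protein that Mttp loads, had estimates of 0.21 in liver (edgeR adjusted p = 0.646) and 0.01 in kidney (edgeR adjusted p = 0.9996), with 131 ± 16.2 and 132 ± 22.8 CPM in kidney (SD, n = 3 each) and 2105 ± 586 and 2433 ± 298 CPM in liver (SD, n = 4 each).

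Mogat1 was abundant in kidney, at 96.7, 89.4 and 104 CPM in ND1 to ND3 and 111, 117 and 128 CPM in HS1 to HS3. The high salt libraries lay above the others by a narrow margin between ND3 and HS1. Its log2 fold change was 0.29 (interval -0.13 to 0.72, edgeR adjusted p = 0.9996). Its start overlaps BC035947, a gene on the opposite strand that shares 200 of its 1558 exon bases (12.8%) and held 91.2 to 147 CPM in kidney. The strand setting of the counting is not given in the sources used here, so reads of the shared bases cannot be assigned. BC035947 ranked the libraries in another order than Mogat1, with ND1 highest.

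**Figure D3:**
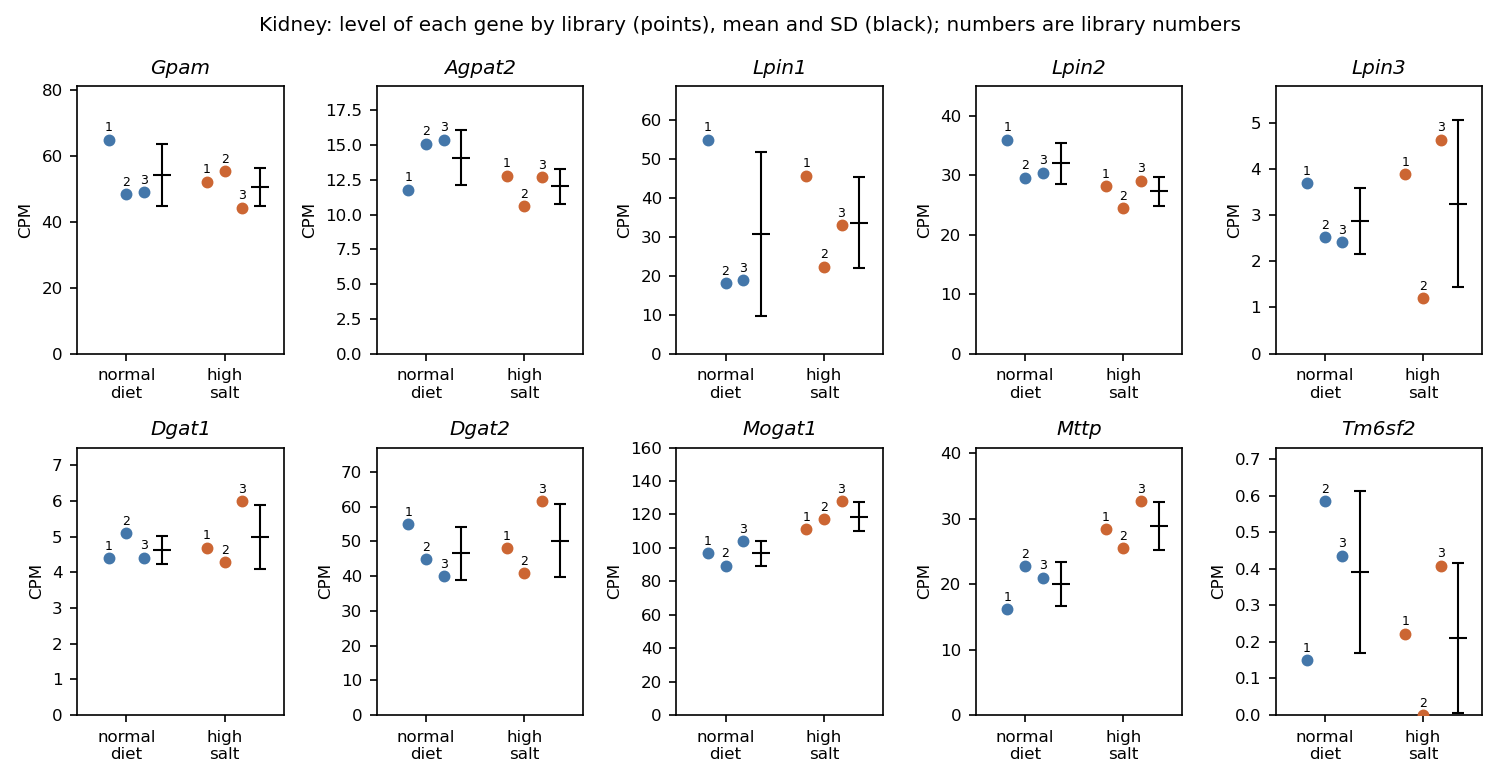
Level of each of the 10 genes in the 6 kidney libraries, in CPM (vertical axes start at 0), drawn as for liver. Mttp and Mogat1 have every high salt point above every normal diet point, Lpin2 has every one below, and Lpin1 is highest in ND1 at 54.9 CPM.

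The remaining kidney members gave changes near 0. Gpam stood at 64.9, 48.3 and 49.0 CPM in ND1 to ND3 and 52.1, 55.3 and 44.2 CPM in HS1 to HS3. Its groups overlapped, with a log2 fold change of -0.10 (interval -0.57 to 0.37). Lpin2 stood at 36, 29.6 and 30.4 CPM in ND1 to ND3 and 28.2, 24.5 and 29.1 CPM in HS1 to HS3, a change of -0.23 (interval -0.64 to 0.18). ND1 was the highest of its group for both genes, and without it the changes were 0.06 for Gpam and -0.14 for Lpin2.

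Lpin1 was also uneven in kidney, where the highest normal diet library was 3.04-fold over the lowest, against 15.4-fold in liver. It stood at 54.9, 18 and 18.9 CPM in ND1 to ND3 and 45.6, 22.3 and 32.9 CPM in HS1 to HS3. ND1 was about as high as HS1, and without ND1 the log2 fold change moved from 0.14 to 0.87 (edgeR adjusted p = 0.243). Its sign turned without ND2 (-0.13), ND3 (-0.12) or HS1 (-0.15). Lpin3 was lowest in HS2 at 1.20 CPM, with 2.42 to 4.64 CPM in the other 5. Agpat2 lay between 10.6 and 15.4 CPM, Dgat1 between 4.29 and 6.0 CPM and Dgat2 between 40.0 and 61.6 CPM over both diets, each with overlapping groups. Tm6sf2 gave 3 to 10 counts in 5 libraries and 0 in HS2, under the filter on low counts, and with 0 counts its level there is bounded only by the 3 counts that a count of 0 allows.

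**Figure D4:**
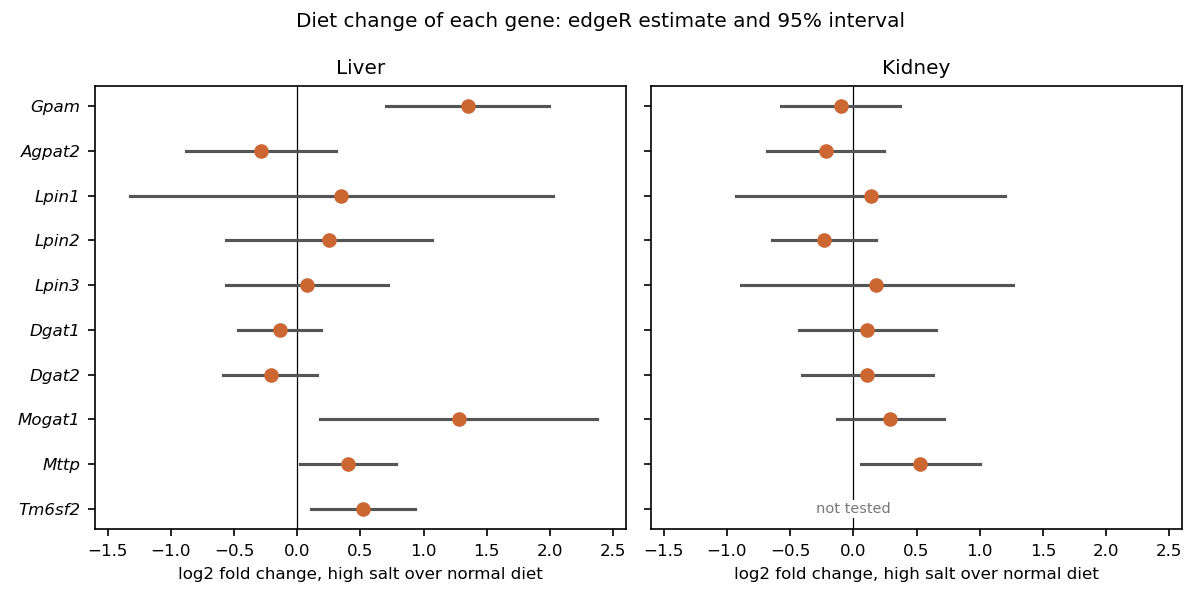
Change of each gene on high salt, as the edgeR log2 fold change (point) with its 95% interval (line), in liver (left, n = 4 each) and kidney (right, n = 3 each). Gpam at 1.35 in liver lies farthest to the right, its kidney value is -0.10, and Tm6sf2 was not tested in kidney.

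A difference in diet effect between liver and kidney was tested by an interaction term over genes found in both tables. Of the 10 members 0 passed in edgeR, as did 0 of 16633 genes (0.00%). Before adjustment 1 member, Gpam, had a p-value under 0.05, as did 10.1% of all genes. DESeq2 called 0 members and 148 genes in all. The Gpam difference, liver change minus kidney change, was 1.45 on the log2 scale (interval 0.57 to 2.34, edgeR adjusted p = 0.281). It was positive in all 21 alternatives, from 1.30 to 1.69, with adjusted p-values from 0.0786 to 0.580. The Mttp difference was -0.12 (interval -0.74 to 0.49, edgeR adjusted p = 0.908).

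The third question was where each gene is expressed. On the normal diet 8 of the 10 members were higher in liver and 1, Mogat1, was higher in kidney, with Lpin3 not past the threshold. Many genes differ between these organs: of 16633 genes tested 65.1% passed, 32.9% higher in liver and 32.2% higher in kidney. Before adjustment 9 members had a p-value under 0.05, as did 68.0% of all genes. The median log2 difference, liver minus kidney, was 3.35 over the members and 0.024 over all genes. In bulk tissue, fewer cells of a type and less RNA per cell cannot be told apart. Levels in this comparison use 1 scaling over all 14 libraries and so differ from the values above.

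Tm6sf2 had the largest liver excess, 13.1 ± 3.17 CPM (SD, n = 4) against 0.318 ± 0.180 CPM (SD, n = 3), which is 41.2-fold (interval 20.6 to 82.3, edgeR adjusted p = 1.15e-07). Dgat2, with 539 ± 77.9 CPM in liver and 38.0 ± 6.07 CPM in kidney, was 14.2-fold higher in liver (edgeR adjusted p = 5.84e-09). Agpat2 was 13.5-fold higher (edgeR adjusted p = 1.10e-07) and Mttp 11.8-fold higher (edgeR adjusted p = 5.26e-09). Albumin, the main hepatocyte transcript, stood in kidney at 0.0256% of its liver level, whereas Tm6sf2 stood at 2.43%, Dgat2 at 7.05%, Agpat2 at 7.41% and Mttp at 8.47%.

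The lipins divided in this comparison. Lpin1 was 10.6-fold higher in liver (interval 3.17 to 35.7, edgeR adjusted p = 0.00192) and Lpin2 9.75-fold (interval 5.57 to 17.1, edgeR adjusted p = 2.22e-06). Lpin3 was at 3.27 ± 0.851 CPM in liver (SD, n = 4) and 2.35 ± 0.573 CPM in kidney (SD, n = 3), a 1.39-fold difference with an interval of 0.772 to 2.51 (edgeR adjusted p = 0.306). Dgat1 was 4.91-fold higher in liver (edgeR adjusted p = 3.37e-08) and Gpam 2.79-fold (interval 1.78 to 4.37, edgeR adjusted p = 0.000576). Among the 8, Gpam thus had the smallest liver excess, a log2 difference of 1.48, and between the high salt libraries of the tissues its difference was 2.93.

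Mogat1 ran the other way, at 0.403 ± 0.195 CPM in liver (SD, n = 4) and 78.8 ± 6.04 CPM in kidney (SD, n = 3). It was 197-fold higher in kidney (log2 difference, liver minus kidney, -7.62 with an interval of -8.54 to -6.70, edgeR adjusted p = 1.07e-09). The overlapping gene BC035947 was likewise a kidney gene in these data, with at most 6 counts in a liver library. As in the diet comparison, reads in the 200 shared exon bases could belong to either. Mogat2, the related enzyme of the gut and one of the pathway genes listed below, was also higher in kidney (log2 difference, liver minus kidney, -3.19, edgeR adjusted p = 6.29e-06). With the high salt libraries of both tissues in place of the normal diet ones, a fit that shares the estimate of spread, 9 members passed again, with Tm6sf2 at 6.63 and Mogat1 at -6.63.

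**Figure D5:**
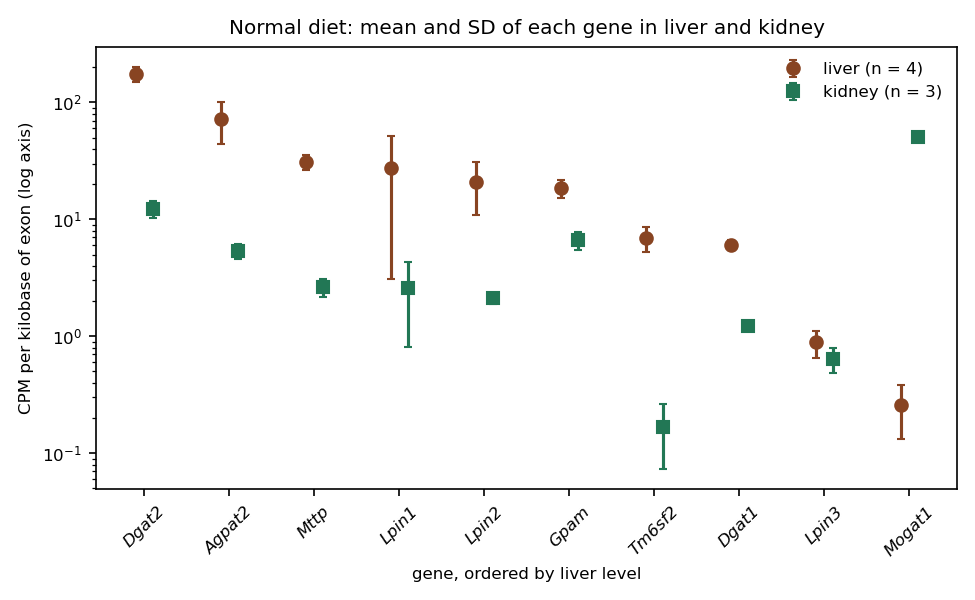
Mean and SD of each gene in liver (circles, n = 4) and kidney (squares, n = 3) on the normal diet, as CPM per kilobase of exon on a log axis, scaled over all libraries. Past the threshold, 8 genes are higher in liver and Mogat1 is reversed. The SD ranges of the tissues overlap for Lpin1 and for Lpin3.

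Compared per exon length and scaled within each tissue, the order of the members differed between the organs. In normal diet liver Dgat2 came first with 147 ± 19.1 CPM per kilobase, followed by Agpat2 with 60.6 ± 21.3 (SD, n = 4 each). Mttp, Lpin1, Lpin2 and Gpam came next, at 26.0, 23.8, 17.7 and 15.5 CPM per kilobase, each overlapping its neighbour in the order. Tm6sf2 and Dgat1 overlapped at 5.78 and 5.12, and Lpin3 and Mogat1 closed the order at 0.748 and 0.215. On high salt Gpam moved by its mean from the sixth to the third place, with 39.4 ± 14.8 CPM per kilobase (SD, n = 4). Its range there, 19.2 to 50.9, overlapped those of Agpat2, Mttp, Lpin1 and Lpin2.

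In normal diet kidney Mogat1 came first with 61.9 ± 4.59 CPM per kilobase, ahead of Dgat2 with 15.1 ± 2.46 and Gpam with 8.12 ± 1.41 (SD, n = 3 each), none of which overlapped. Agpat2 followed with 6.62, then Mttp, Lpin1 and Lpin2 with overlapping ranges at 3.21, 3.17 and 2.62. Dgat1, Lpin3 and Tm6sf2 were last at 1.51, 0.780 and 0.205. Dgat2 was 8.76 to 12.4 times Dgat1 per exon base in the 6 kidney libraries, a range wholly below the 22.1 to 34.8 times of the liver libraries.

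The other genes of the pathway were followed in 4 lists. Of 15 glycerolipid enzymes related to the members, such as other acyltransferases and acyl-CoA synthetases, 14 were tested in liver and 0 passed in edgeR between the diets, with a median log2 fold change of 0.00. Of 14 lipoprotein assembly partners 0 passed, with a median of -0.31. Of 12 genes of the phospholipid branch 11 were tested and 0 passed, with a median of 0.26. Of 6 lipin phosphatase and endoplasmic reticulum lipid factors 0 passed, with a median of 0.08. Before adjustment 4, 6, 2 and 0 genes of the lists had a p-value under 0.05, where 21.2% of all genes had one. DESeq2 called 0 genes of these lists in liver.

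Some members of the lists are named here after their values were seen. Gpd1, which makes glycerol-3-phosphate, the substrate of Gpam, differed in liver by 0.76 on the log2 scale, standard error 0.262 (edgeR adjusted p = 0.162), with a high salt mean of 275 ± 88.8 CPM (SD, n = 4). Gpat4, the acyltransferase of the endoplasmic reticulum that catalyses the same reaction as Gpam, went from 179 ± 29.8 to 134 ± 14.7 CPM (SD, n = 4 each; edgeR adjusted p = 0.209). The estimates for Gpam and Gpat4 thus had opposite signs. P4hb, the partner subunit of Mttp, went from 1687 ± 401 to 1126 ± 54.7 CPM (SD, n = 4 each, edgeR adjusted p = 0.183). Its estimate was again opposite in sign to that of Mttp. P4hb was not alone in this among the 14 assembly partners, of which 6 had positive estimates. Pla2g12b (-0.79) and Tmem41b (-0.5) were also lower on the log2 scale, and Mia3 (0.4) was higher, none past the threshold.

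In kidney 0 genes of the 4 lists passed in edgeR or DESeq2, with 1, 1, 0 and 0 genes at an unadjusted p-value under 0.05 and medians of 0.03, 0.00, -0.03 and 0.08. Named after its value was seen, Mogat2 went from 3.70 ± 0.938 to 7.64 ± 1.08 CPM in kidney (SD, n = 3 each; edgeR unadjusted p = 0.00411, adjusted p = 0.9996).

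Between the tissues on the normal diet each of the 4 lists held genes past the threshold. Of the 14 assembly partners 10 were higher in liver and 0 lower, with Pla2g12b (6.57), Apob (4.54) and Cideb (2.80), all factors of VLDL loading, having the largest log2 differences. Of the 15 glycerolipid enzymes 6 were higher and 4 lower in liver. Gpat4 (3.05), Acsl1 (2.90) and Gpat2 (2.85) led the first and Gk (-3.48), Mogat2 (-3.19) and Agpat1 (-1.45) the second. In the phospholipid branch 7 were higher and 4 lower, from Pemt (10.56), which makes phosphatidylcholine by methylation in liver, with Etnk2 (7.91) and Pcyt2 (4.01) next, to Cds1 (-7.06), which turns phosphatidic acid toward phosphatidylinositol. Chpt1 (-4.45) and Chka (-0.70) were also among the 4. Of the 6 lipin phosphatase and lipid factors 4 were higher, led by Fitm1 (2.59), Fitm2 (1.67) and Bscl2 (1.51). The other 2 were lower, Tmem159 (-2.86) and Cnep1r1 (-1.28), a subunit of the phosphatase that acts on lipins. These counts stand beside 65.1% of all genes called in that comparison, 32.9% higher and 32.2% lower in liver. Whether a list differs from other genes was not tested.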

How the data were processed

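RNA-seq libraries were prepared with the SMARTer mRNA-Seq kit from total RNA of liver and kidney, per the labels. Per the submitters' processing notes, Partek 7.0, STAR 2.5.3a, DESeq2 and mm10 were used, with no role or order given. The authors deposited expected counts per gene from Partek's expectation-maximisation quantification, as the tables' names state, and a normalized signal per gene on a linear scale, whose method is not given in the sources used here. From the values, the liver signal is the counts times 1 factor per library, and the kidney signal comes from another quantification than the kidney counts. Columns were matched to samples by name. High salt columns of liver could be matched to their group only. No per-sample column was left unused (0). Gene starts equalled GENCODE M21 (GRCm38) for 99.4% of the genes named in both, and exon lengths are unions of its exons. For Lpin1 GENCODE ends at base 16610966 and the counted gene at 16646966, so its exon length may not cover all that was counted.

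Expected counts were rounded and tested with edgeR 4.0.16 in R 4.3.3 (quasi-likelihood, TMM scaling, filterByExpr), with Benjamini-Hochberg adjustment over all genes tested and a threshold of 0.05. Each tissue was fitted apart for diet, and all 14 libraries together for the tissue contrasts. Standard errors are the fold change over the root of the F statistic, and intervals are 95%. CPM use TMM library sizes. Biological variation (common coefficient) came to 0.314 for liver and 0.300 for kidney libraries, and this spread limits most values. Fits were tested on simulated data. Alternatives were RLE scaling, removal of mitochondrial genes, DESeq2 1.42.0, other filters, limma 3.58.1 on the deposited signal with pseudocounts of 1 and 0.1, other sets of libraries and a replicate block.

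The members and gene lists were chosen with earlier results of these data known. All 10 members are named whatever their p-value. From the other lists the rule names genes past the threshold, up to 3 in each direction. Other genes are named as chosen after their values were seen. The human transgene was not analysed here. A count of 0 is taken to lie under 3 counts, and this floor covers counting error only.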

Additional observations from a re-analysis of the deposited data

Results flagged for a closer look

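Of 20 liver groups of 4 libraries checked, 2 had one library far from the others, and chance gives about 1 in 20. Both were high salt library HS8. Lpin1 stood at 87.9 CPM in HS8, where the other high salt libraries held 333 to 378 CPM, and Mogat1 at 1.59 CPM, where they held 0.497 to 0.663 CPM. Lpin2 was also lowest in HS8 on high salt, at 161 CPM. No member had a diet effect that passed a test of the difference between the tissues, or diets that lay apart in opposite directions in the 2 tissues.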

How the results depend on the processing

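The number of members past the threshold in liver was 0, and it was 1 with DESeq2 and with all 14 libraries in 1 fit, and from 0 to 1 over the fits that left out 1 library (Gpam, without HS7). In kidney and for the interaction it was 0 in every alternative, and between the tissues 9 in the main fit and over the fits without 1 library. Over all genes, liver calls went from 152 to 1122 with DESeq2, 260 with all libraries in 1 fit, 12 with HS5 and HS6 summed, 52 without ND1 and ND2, and 12 to 765 without 1 library. Kidney calls went from 0 to 11 with DESeq2, and kidney genes with an unadjusted p-value under 0.05 from 318 to 2627 without ND1. Interaction calls went from 0 to 148 with DESeq2, 2 with at least 10 counts in every library, 1 without ND1 and ND2, and 0 to 7 without 1 library.

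Of the values by gene, none past the threshold changed sign. Without ND1 and ND2 the liver change became 0.22 for Agpat2, -0.47 for Lpin1 and -0.17 for Lpin2, and the tissue difference in diet effect 0.51 for Agpat2 and -0.54 for Lpin1. With HS5 and HS6 summed Lpin3 in liver became -0.01. Leaving out 1 library gave liver ranges of -0.02 to 0.91 for Lpin1 and -0.06 to 0.25 for Lpin3, and, with no change of sign, -0.44 to -0.08 for Agpat2 and 0.02 to 0.62 for Lpin2. The kidney ranges were -0.17 to 0.06 for Gpam, -0.15 to 0.87 for Lpin1, -0.16 to 0.56 for Lpin3, -0.04 to 0.21 for Dgat1 and -0.07 to 0.24 for Dgat2. The interaction ranges were -0.23 to 0.16 for Agpat2, -0.46 to 0.82 for Lpin1, -0.47 to 0.25 for Lpin3 and -0.23 to 0.01 for Mttp. The cause of these turns was not tested.

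Deviations from the group mean of same-numbered kidney libraries correlated at 0.68, 0.69 and -0.20. Those of kidney libraries with different numbers correlated at -0.72 to 0.68. With 3 libraries per group, deviations within a group depend on each other, so these values cannot decide whether replicate numbers pair the libraries. With the replicate block 0 kidney members passed. Between normal diet liver and kidney the correlations of same-numbered libraries were -0.29, 0.34 and -0.40. With the block over libraries 1 to 3 of each tissue 8 members passed, and Lpin1 did not (2.52, edgeR adjusted p = 0.0700), whereas without the block those libraries gave 3.12 (adjusted p = 0.0205), a fit added after seeing the data. No paired analysis was possible in liver because the high salt columns carry no titled number. Depth limits Mogat1 in liver and Tm6sf2 in kidney.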
